A study of Mus musculus with 9 samples.

Results

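The mmu-miR-23, mmu-miR-24 and mmu-miR-27 microRNAs (miRNAs) were followed in small RNA libraries of the mouse hippocampus. The rows taken were those named mmu-miR-23a-3p, mmu-miR-23b-3p, mmu-miR-24-3p, mmu-miR-27a-3p and mmu-miR-27b-3p, which are 5 of the 1448 mature miRNAs in the deposited table. All 9 libraries were used, 3 in each group. Every mouse was C57BL/6J, male and adult by the study's text, and no genetic change is named for any group. The saline group received 0.9% saline and no LPS. The LPS group received a single intraperitoneal dose of 1 mg/kg LPS, a bacterial endotoxin that sets off inflammation. Its labels also name 0.12% saline. The LPS + GAS group received the same LPS dose and 100 mg/kg GAS (gastrodin, a phenolic glucoside of the orchid Gastrodia elata). The labels place GAS 1 h after LPS, whereas the study's text also has it given together with LPS or before it, so the order is not settled here. The study's text has tissue taken after behaviour tests that were run at more than 1 time after injection. It does not give the hour for the sequenced tissue, and the labels give no age. The labels do not say whether each library came from a single mouse or from pooled tissue, so p-values measure the spread between these libraries, which may be partly technical.

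MiRNAs are short RNAs that guide Argonaute proteins to messenger RNAs, mainly through the seed, bases 2 to 8 of the mature strand, and lower the output of those messages. A hairpin precursor is cut into a 5p and a 3p strand, of which usually only the guide strand is kept. The miR-23, miR-27 and miR-24 hairpins stand together in vertebrate genomes as a pair of duplicated clusters, each transcribed as a single primary RNA. They are studied in blood vessel growth, muscle, fat tissue and immune cells. MiR-23b is known for restraining cytokine signalling, miR-27 for repressing genes of lipid metabolism such as Pparg, and miR-24 for repressing genes of apoptosis and DNA repair. In the brain, miR-23 has been linked to astrocytes.

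The mature sequences are shown because they set what can be told apart. The seed is in capitals, 5′ to 3′, as in the deposited table.
miR-23a-3p: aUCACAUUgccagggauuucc
miR-23b-3p: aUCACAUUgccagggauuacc
miR-27a-3p: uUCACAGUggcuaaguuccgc
miR-27b-3p: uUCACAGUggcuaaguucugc
miR-24-3p: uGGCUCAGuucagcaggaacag
The 5 miRNAs therefore carry 3 seeds. MiR-23a-3p and miR-23b-3p share UCACAUU and differ by 1 base, U19A, counted from 1 at the 5′ end of miR-23a-3p. MiR-27a-3p and miR-27b-3p share UCACAGU and differ by C19U, again with the a form first. MiR-24-3p has the seed GGCUCAG, which no other row of the table carried at bases 2 to 8. The seed of miR-27 recurred at bases 1 to 7 of a single other miRNA, miR-128-3p, which is abundant in neurons. Its sequence, with those bases in capitals, is given for comparison.
miR-128-3p: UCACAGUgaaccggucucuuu
Because a single base near the 3′ end separates the a and b forms, reads with an error or a trimmed end there could be counted on the wrong form. How the authors treated such reads is not given in any source used here.

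The 6 hairpins that give these miRNAs lie in 2 clusters, with positions from RefSeq on GRCm38.p6, the build that the submitters' processing notes name. Mir23a, Mir27a and Mir24-2 lie within 404 bp on the plus strand at chr8:84208518-84208921. This stretch holds no protein-coding gene in GENCODE release M21, and the nearest, Zswim4, is 1757 bp away. The end of Mir24-2 overlaps the start of the only exon annotated over it, that of the lincRNA Gm26532. Mir23b, Mir27b and Mir24-1 lie within 792 bp on the plus strand at chr13:63300484-63301275, inside the protein-coding gene 2010111I01Rik on the same strand and antisense to Fancc. Mir23b is intronic in all 9 transcripts of 2010111I01Rik that span it. Mir27b falls in an exon of 1 of 9 transcripts, annotated for nonsense-mediated decay, and Mir24-1 in an exon of 4 of 11, with none of these exons in a transcript annotated as protein coding.

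Both clusters yield the same mature miR-24-3p, which is why it has a single row. The hairpins of miR-24 are shown, as RNA and with the 3p strand in capitals, since only their 5p strands can separate the clusters. They lie at chr8:84208815-84208921 and chr13:63301208-63301275, both on the plus strand, and the RefSeq hairpins were identical to the precursors in the deposited table.
Mir24-2: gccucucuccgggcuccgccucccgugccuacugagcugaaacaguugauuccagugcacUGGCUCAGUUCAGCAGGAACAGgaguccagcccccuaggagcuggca
Mir24-1: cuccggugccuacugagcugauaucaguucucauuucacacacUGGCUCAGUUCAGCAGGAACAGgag
Reads of miR-24-3p were therefore a sum over the chromosome 8 and chromosome 13 hairpins. On the opposite strand, Mir3074-2 overlaps Mir24-2 and Mir3074-1 overlaps Mir24-1. The mature miR-3074-2-3p lies opposite miR-24-2-5p over 20 bases and miR-3074-5p lies opposite miR-24-3p over 20 bases.

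Each library held 10119758 to 11457656 reads counted on miRNAs, and each of the 5 miRNAs had at least 12612 reads in every library. Levels are given as CPM, reads scaled to the library size after edgeR's TMM method, whose factors were 0.914 to 1.19. Each read stands for a whole mature miRNA of 21 or 22 bases, so CPM was not divided by length. Adapter ligation favours some sequences over others, so levels of different miRNAs are less comparable than levels of 1 miRNA between libraries. The libraries were whole tissue, in which fewer cells of a type and less RNA per cell cannot be told apart. All 6 miRNAs listed as markers of hippocampal neurons and brain were read in every library, with a summed level of 99435 to 140963 CPM. Markers of blood vessels summed to 16407 to 22894 CPM those of oligodendrocytes to 1964 to 6004 CPM, those of leukocytes and microglia to 2569 to 6226 CPM and those of red blood cells to 2025 to 6175 CPM. The 12 choroid plexus and ependyma markers, in contrast, ranged from 9592 to 59197 CPM between libraries, and their summed level was 9592 to 30698 CPM in the saline group, 9695 to 23058 CPM in the LPS group and 12331 to 59197 CPM in the LPS + GAS group. No marker of these lists was at 0 in any library.

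Together the 5 miRNAs took between 1.42% of a library's reads, in LPS + GAS replicate 2 (95% exact binomial interval 1.42 to 1.43), and 2.15%, in saline replicate 2 (2.14 to 2.16). These intervals cover counting error only. By mean CPM over the 9 libraries, miR-24-3p was highest, with 6039 CPM and rank 29 of the 628 miRNAs tested. MiR-23b-3p followed with 5306 CPM (rank 31), then miR-23a-3p with 1933 CPM (rank 57), miR-27a-3p with 1583 CPM (rank 62) and miR-27b-3p with 1446 CPM (rank 65). Only the step from miR-23b-3p down to miR-23a-3p held in all 9 libraries, with a median ratio of 2.88. MiR-24-3p was above miR-23b-3p in 5 of 9 libraries, miR-23a-3p above miR-27a-3p in 7 of 9, and miR-27a-3p above miR-27b-3p in 7 of 9. The order of these neighbours thus changed from library to library, and their differences were not tested.

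**Figure D1:**
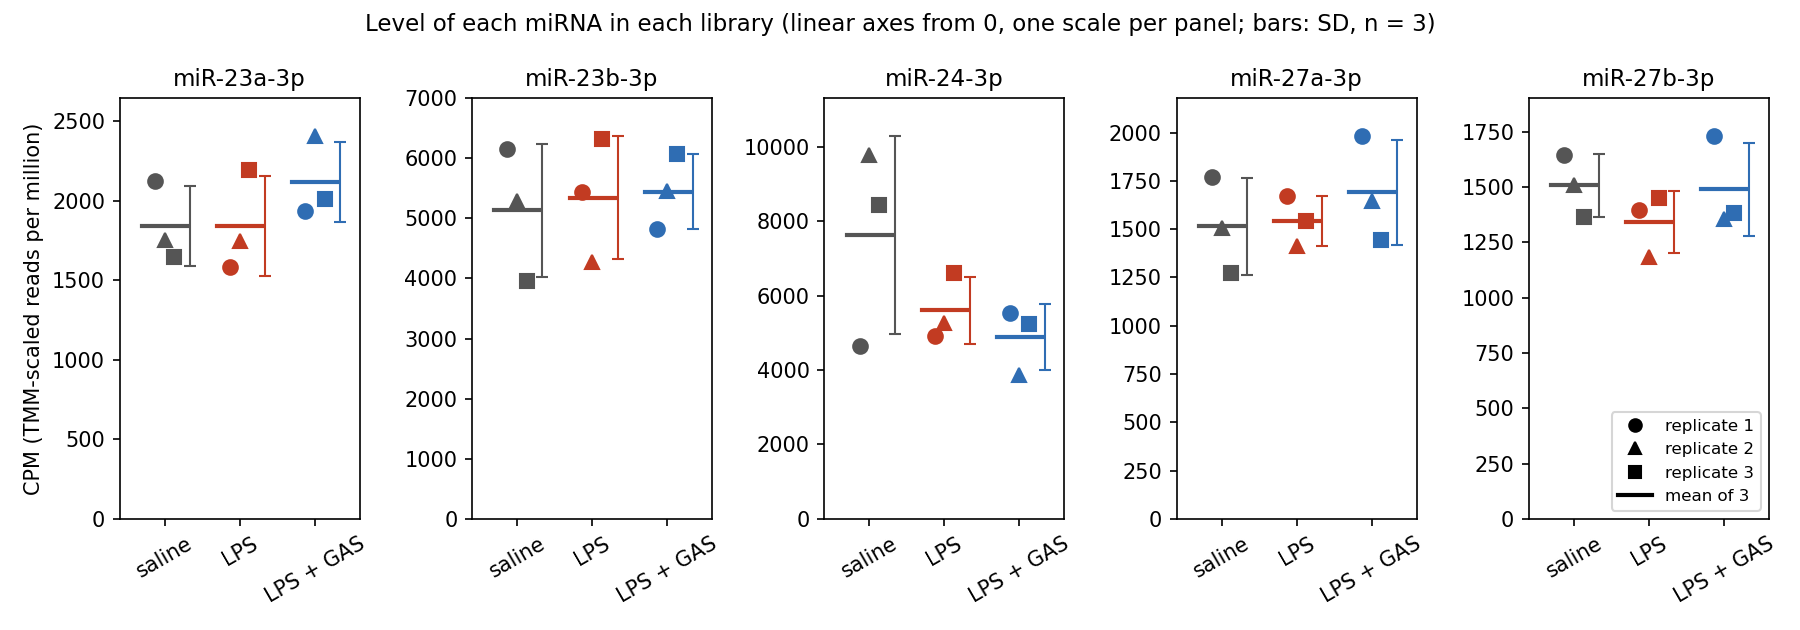
Level in CPM (y axes, linear and from 0, with a scale of its own in each panel) of miR-23a-3p, miR-23b-3p, miR-24-3p, miR-27a-3p and miR-27b-3p in the 9 libraries, by group on the x axis. Each point is a library, horizontal lines are means and bars are SDs (n = 3 in each group). The groups overlap in every panel, and the 2 highest miR-24-3p values, 9781 and 8450 CPM, are both in the saline group.

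MiR-24-3p, the miRNA that both clusters encode, varied most. In the saline group its level was 4650, 9781 and 8450 CPM in replicates 1, 2 and 3. In the LPS group it was 4928, 5274 and 6618 CPM, and in the LPS + GAS group 5528, 3880 and 5245 CPM. Saline replicates 2 and 3 stood above all other libraries, while saline replicate 1 was lower than every LPS library, so the groups overlapped. The group means were 7627 ± 2663 CPM (SD, n = 3) for saline, 5607 ± 893 CPM for LPS and 4884 ± 881 CPM for LPS + GAS. From its lowest to its highest library miR-24-3p ranged 2.52-fold, against 1.46-fold to 1.60-fold for the other 4.

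MiR-23b-3p, the miR-23 of chromosome 13, was 6157, 5284 and 3956 CPM in the saline group. The LPS libraries had 5437, 4276 and 6314 CPM, and the LPS + GAS libraries 4816, 5452 and 6065 CPM. The lowest library was thus saline and the highest LPS, and all groups overlapped. The means were 5133 ± 1108 CPM (SD, n = 3), 5342 ± 1022 CPM and 5444 ± 625 CPM in that order of groups. MiR-23a-3p, its chromosome 8 counterpart, was 2124, 1751 and 1648 CPM in the saline group. It was 1583, 1746 and 2192 CPM in the LPS group and 1938, 2405 and 2010 CPM in the LPS + GAS group. All 3 LPS + GAS libraries were above 2 of the 3 saline libraries, but saline replicate 1 lay among them. The means were 1841 ± 250.3 CPM, 1840 ± 315 CPM and 2118 ± 251 CPM. As a seed family, miR-23a-3p and miR-23b-3p summed to 6974 ± 1339 CPM (SD, n = 3) in saline, 7183 ± 1250 CPM in LPS and 7562 ± 708 CPM in LPS + GAS.

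MiR-27a-3p was 1772, 1503 and 1271 CPM in the saline group. Its LPS libraries had 1671, 1413 and 1542 CPM, and its LPS + GAS libraries 1981, 1644 and 1446 CPM. Every LPS value fell inside the saline range. Its means were 1516 ± 251 CPM (SD, n = 3) in saline, 1542 ± 129 CPM in LPS and 1690 ± 270.4 CPM in LPS + GAS. MiR-27b-3p was 1647, 1511 and 1363 CPM in the saline group and 1396, 1185 and 1449 CPM in the LPS group. The LPS + GAS libraries had 1729, 1355 and 1383 CPM. The lowest library was in the LPS group and the highest in the LPS + GAS group. The means were 1507 ± 142 CPM, 1343 ± 140 CPM and 1489 ± 209 CPM. Summed as a seed family, miR-27a-3p and miR-27b-3p gave 3023 ± 392 CPM in saline, 2885 ± 252 CPM in LPS and 3179 ± 467 CPM in LPS + GAS. MiR-128-3p, with the same 7 bases shifted by 1, was 8200 ± 1283 CPM, 9664 ± 1291 CPM and 9175 ± 2866 CPM in these groups, well above the miR-27 sum in each library.

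The spread between libraries of a group set what could be seen. The SD of log2(CPM + 0.5) within groups was 0.16 for miR-27b-3p, 0.20 for miR-23a-3p, 0.20 for miR-27a-3p, 0.27 for miR-23b-3p and 0.39 for miR-24-3p. The median of this SD was 0.25 over the 164 miRNAs with at least 1000 reads in every library. Of those 164, 22 varied less than miR-27b-3p and 132 varied less than miR-24-3p. The precision was thus limited by the spread between libraries and not by depth.

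The first comparison asks what LPS did to these miRNAs. None of the 5 was called in LPS vs saline by edgeR's quasi-likelihood test, where a call needs a Benjamini-Hochberg adjusted p of at most 0.05 over 628 miRNAs and a log2 fold change of at least 1 in size. Over all 628 miRNAs, 0 were called (0%). At an unadjusted p under 0.05 there were 0 of the 5, against 15 of 628 (2.39%), and groups did not overlap for 0 of the 5, against 24 of 628 (3.82%). The fitted log2 fold changes were 0.00 for miR-23a-3p (95% confidence interval -0.41 to 0.41), 0.06 for miR-23b-3p (-0.41 to 0.53) and 0.02 for miR-27a-3p (-0.39 to 0.44). That of miR-27b-3p was -0.17 (-0.54 to 0.21), and that of miR-24-3p was -0.44 with a standard error of 0.27 (-1.05 to 0.16). The edgeR adjusted p was at least 0.992 for each. The median over the 5 was 0.00, and over all 628 it was -0.04. The intervals of the 4 miRNAs other than miR-24-3p thus left out a log2 fold change of 1 or -1, and that of miR-24-3p took in -1. All 12 choroid plexus and ependyma markers (median -0.54), all 4 oligodendrocyte markers (median -0.61) and all 4 red blood cell markers (median -0.39) had fitted values below 0 in this contrast, with 0 called, and their part in the values of the 5 miRNAs was not tested. The markers of neurons, of blood vessels and of leukocytes and microglia went both ways. Over all 628 miRNAs, 361 were below 0. Without saline replicate 2, its highest library, miR-24-3p gave -0.17, and without saline replicate 1 it gave -0.66.

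The next comparison asks what GAS changed in mice that had received LPS. By the same edgeR test 0 of the 5 were called in LPS + GAS vs LPS, against 0 of 628 (0%). At an unadjusted p under 0.05 there were 0 of the 5 and 23 of 628 (3.66%), and groups did not overlap for 0 of the 5 and 54 of 628 (8.6%). The log2 fold changes were 0.20 for miR-23a-3p (95% confidence interval -0.21 to 0.61), 0.15 for miR-27b-3p (-0.22 to 0.52), 0.13 for miR-27a-3p (-0.28 to 0.54), 0.03 for miR-23b-3p (-0.44 to 0.50) and -0.20 for miR-24-3p (-0.80 to 0.41). With a library left out these became 0.10 to 0.35 for miR-23a-3p, 0.0379 to 0.22 for miR-27b-3p, 0.0161 to 0.25 for miR-27a-3p, -0.0964 to 0.17 for miR-23b-3p and -0.29 to -0.0568 for miR-24-3p. All 5 intervals of the fit with every library therefore lay between -1 and 1. The edgeR adjusted p was at least 0.903 for each. The median over the 5 was 0.13, beside 0.00 over all 628. All 12 choroid plexus and ependyma markers had fitted values above 0 in this contrast, with a median of 1.44 and 0 of 12 called. So did all 4 red blood cell markers (median 1.04), all 4 oligodendrocyte markers (median 0.42) and all 4 leukocyte and microglia markers (median 0.27), with 0 called. The markers of neurons and of blood vessels went both ways, and 318 of all 628 miRNAs were above 0. The summed level of the red blood cell markers was 2150 to 3241 CPM in the LPS group and 4541 to 6175 CPM in the LPS + GAS group, without overlap. The part of these differences in the values of the 5 miRNAs was not tested.

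LPS + GAS vs saline compares mice given both agents with mice given neither, and shares its libraries with the comparisons above. Again 0 of the 5 were called, against 1 of 628 (0.159%). Groups did not overlap for 0 of the 5 and 46 of 628 (7.32%). At an unadjusted p under 0.05 there was 1 of the 5, miR-24-3p, and 21 of 628 (3.34%). MiR-24-3p had a log2 fold change of -0.64 with a standard error of 0.27 (95% confidence interval -1.25 to -0.04). Its p by edgeR was 0.0403 unadjusted and 0.998 adjusted, so it did not pass. Of the saline libraries, 2 of 3 were above every LPS + GAS library and replicate 1 was above 1 of the 3. The value was -0.37 without saline replicate 2, -0.86 without saline replicate 1 and -0.40 with the exp values, the table's other whole number for each library. The other log2 fold changes were 0.20 for miR-23a-3p (-0.21 to 0.61), 0.16 for miR-27a-3p (-0.25 to 0.57), 0.09 for miR-23b-3p (-0.38 to 0.55) and -0.02 for miR-27b-3p (-0.39 to 0.36). The median over the 5 was 0.09, and over all 628 it was -0.03. In this contrast, too, all 12 choroid plexus and ependyma markers had fitted values above 0 (median 1.01, 0 of 12 called), as did all 4 red blood cell markers (median 0.61, 0 of 4 called). The summed level of the red blood cell markers was 2025 to 4267 CPM in saline and 4541 to 6175 CPM in LPS + GAS, again without overlap. Values above 0 were found for 3 of 4 leukocyte and microglia markers (median of the list 0.42) and 1 of 4 oligodendrocyte markers (median -0.15). The markers of neurons and of blood vessels went both ways, and 277 of all 628 miRNAs were above 0. The part of these marker differences in the values of the 5 miRNAs was not tested.

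**Figure D2:**
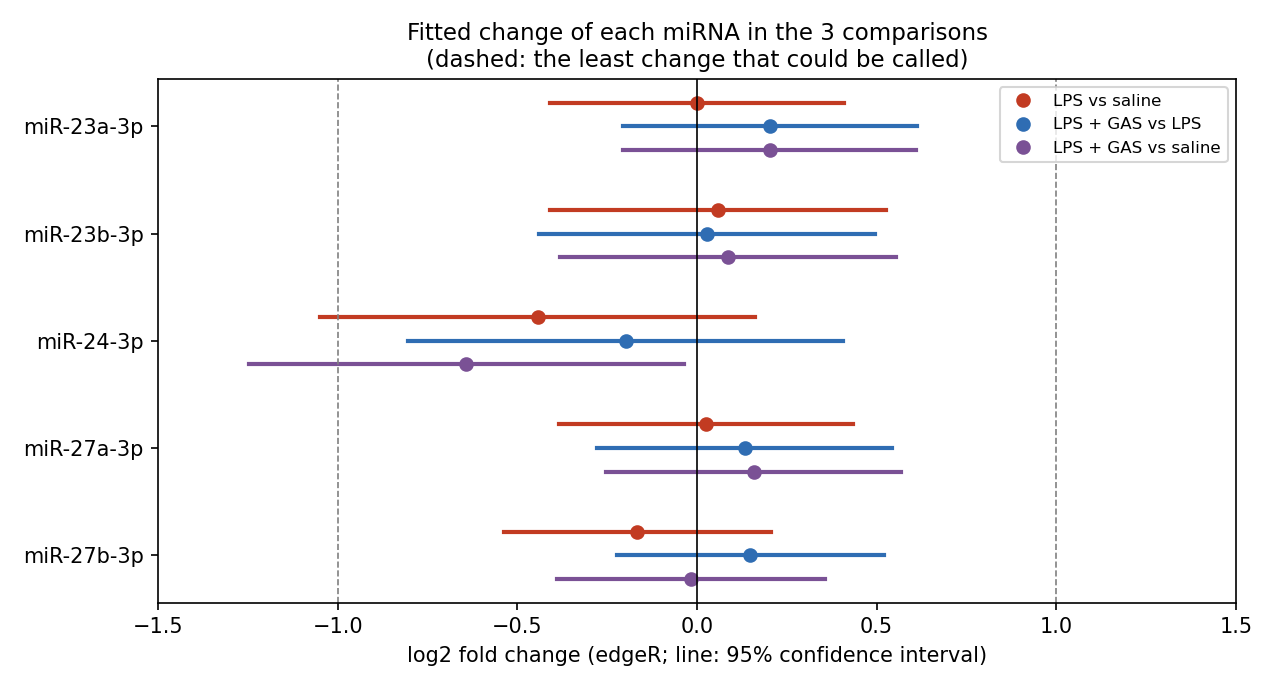
Log2 fold change (x axis) with its 95% confidence interval for miR-23a-3p, miR-23b-3p, miR-24-3p, miR-27a-3p and miR-27b-3p (rows) in the 3 comparisons of the groups, from edgeR with 3 libraries in each group. Dashed lines mark -1 and 1, and only the interval of miR-24-3p in LPS + GAS vs saline, -1.25 to -0.04, does not contain 0.

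The a and b forms allow the clusters to be compared within a library, where scaling cancels. For miR-23, the chromosome 8 form was the minor one. The ratio of miR-23a-3p to miR-23b-3p reads was 0.345, 0.331 and 0.417 in the saline group, 0.291, 0.408 and 0.347 in the LPS group and 0.402, 0.441 and 0.331 in the LPS + GAS group. MiR-23b-3p thus made up 69.4% to 77.4% of the miR-23 reads. For miR-27 the forms were near parity. The ratio of miR-27a-3p to miR-27b-3p was 1.08, 0.995 and 0.932 in the saline group, 1.20, 1.19 and 1.06 in the LPS group and 1.15, 1.21 and 1.05 in the LPS + GAS group. Saline replicate 1 overlapped with the lowest library of each LPS-injected group, and the other 2 saline libraries lay below all 6 LPS-injected libraries.

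The mean log2 ratio of miR-27a-3p to miR-27b-3p was 0.00 ± 0.10 (SD, n = 3) in saline, 0.20 ± 0.10 in LPS and 0.18 ± 0.11 in LPS + GAS. Against saline the difference was 0.20 for LPS and 0.18 for LPS + GAS, each with an exact two-sided permutation p of 0.2. In LPS + GAS vs LPS it was -0.02 with an exact permutation p of 0.7. For miR-23a-3p to miR-23b-3p the differences were -0.07 in LPS vs saline (exact permutation p of 0.8), 0.17 in LPS + GAS vs LPS (exact p of 0.5) and 0.10 in LPS + GAS vs saline (exact p of 0.7). Adjusted over the 6 tests, the exact permutation p was 0.6 for the first pair and 0.8 for the other 4. With 3 libraries against 3, the smallest p this test can give is 0.1, so no ratio could pass.

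**Figure D3:**
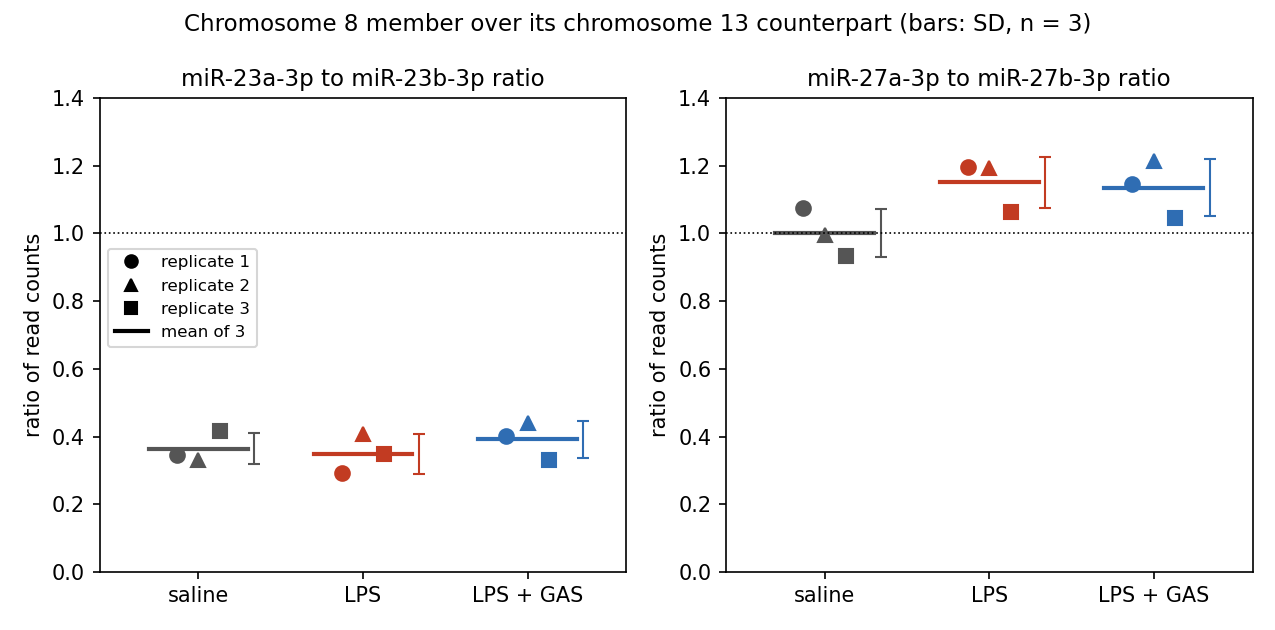
Ratio of read counts (y axes, linear and from 0) of miR-23a-3p to miR-23b-3p, left, and of miR-27a-3p to miR-27b-3p, right, in the 9 libraries by group. Each point is a library, lines are means, bars are SDs (n = 3 in each group) and the dotted line marks equal reads. All 9 miR-23 ratios sit between 0.291 and 0.441, and the miR-27 ratios between 0.932 and 1.21.

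Which members moved together from library to library was described by the SD, over the 9 libraries, of the log2 ratio of their reads, where a small SD means a steady ratio. All values come from the same 9 libraries and carry no test. The steadiest pair was miR-27a-3p and miR-27b-3p, on different chromosomes with the same seed, at 0.13. The pair miR-23a-3p and miR-23b-3p followed at 0.20. Pairs from 1 cluster were at 0.22, for miR-23a-3p with miR-27a-3p, and at 0.23, for miR-23b-3p with miR-27b-3p. These were close to the pairs that share neither cluster nor seed, at 0.23 and 0.24. MiR-24-3p stood apart from all of them, with 0.44 to miR-27b-3p and 0.54 to 0.55 to the other 3. With the exp values these were 0.32 and 0.40 to 0.42, still above the other pairs. The a and b forms are also the pairs that differ by a single base, so reads counted on the wrong form would make their ratio steadier, and this was not tested.

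**Figure D4:**
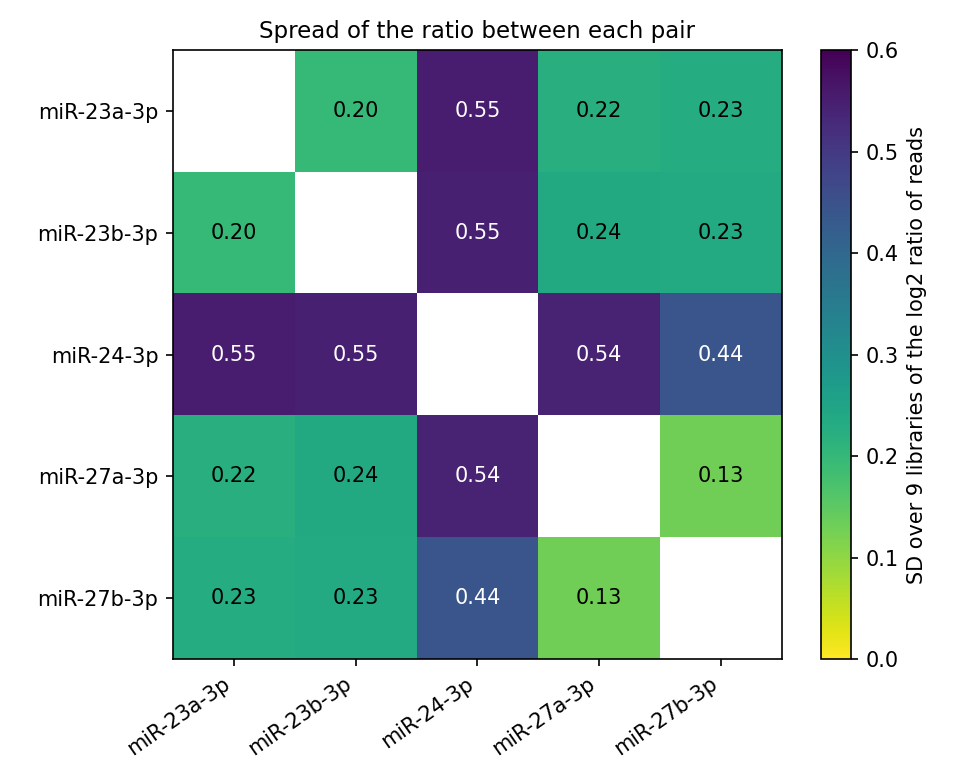
SD over the 9 libraries of the log2 ratio of reads for each pair of miR-23a-3p, miR-23b-3p, miR-24-3p, miR-27a-3p and miR-27b-3p, written in each square and given by colour, with darker squares for larger SDs. The miR-24-3p row and column hold the largest values, 0.44 to 0.55, and miR-27a-3p with miR-27b-3p the smallest, 0.13.

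The same measure was taken against all 163 other miRNAs with at least 1000 reads in every library. The 3 with the steadiest ratio to miR-23a-3p were miR-146a-5p (0.14), a miRNA induced by NF-kB signalling, miR-151-5p (0.15) and miR-100-5p (0.15). Those of miR-23b-3p were miR-146a-5p (0.14), miR-29c-3p (0.17) and miR-30b-5p (0.18). Those of miR-27a-3p were miR-92a-3p (0.12), miR-27b-3p (0.13) and miR-125a-5p (0.13). Those of miR-27b-3p were miR-99a-5p (0.10), miR-92a-3p (0.12) and miR-423-3p (0.12). For miR-24-3p the steadiest ratios were wider, with 0.29 to miR-1983, 0.31 to miR-30a-5p and 0.34 to miR-411-5p. The median SD over the 163 was 0.49 for miR-24-3p and 0.29 to 0.33 for the other 4. Among these 163, the cluster neighbour ranked 27th for miR-23a-3p, 22nd for miR-23b-3p, 26th for miR-27a-3p and 46th for miR-27b-3p. The partner with the same seed ranked 13th for miR-23a-3p, 8th for miR-23b-3p, 2nd for miR-27a-3p and 4th for miR-27b-3p.

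The 5p strands of the 6 hairpins give another reading of each hairpin. They were far scarcer, as is usual for passenger strands. MiR-23a-5p had 0 to 6 reads in a library and was below the filter of 10 reads in 3 libraries. MiR-23b-5p had 85 to 147 reads, miR-27a-5p 73 to 197 and miR-27b-5p 224 to 375. There were 341 to 634 reads of miR-23b-3p for each read of miR-23b-5p, 108 to 210.01 of miR-27a-3p for each of miR-27a-5p and 44.1 to 59.8 of miR-27b-3p for each of miR-27b-5p. The chromosome 13 hairpin gave 60.5% to 81.5% of the miR-27 5p reads and only 45.2% to 51.8% of the miR-27 3p reads.

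For miR-24 the 5p strands differ in sequence and can be assigned. MiR-24-2-5p, of chromosome 8, had 619 to 1051 reads and miR-24-1-5p, of chromosome 13, 122 to 239. The share of miR-24-1-5p was lowest in LPS + GAS replicate 2 at 13.8% (95% exact binomial interval 11.7 to 16.1) and highest in LPS + GAS replicate 1 at 19.4% (17.2 to 21.7). Chromosome 8 therefore gave most miR-24 5p reads in all 9 libraries, whereas chromosome 13 gave most miR-23 reads of either strand in all 9. The miR-23 5p part of this rests on miR-23a-5p, a row below the filter. The compared forms differ in sequence, and how far adapter ligation enters their shares was not tested. How much of the shared miR-24-3p came from each hairpin cannot be told apart from these counts.

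The ratio of miR-24-3p to the 2 miR-24 5p rows together was 44.2, 98.9 and 113 in the saline group, 53.7, 73.1 and 52.6 in the LPS group and 48.1, 39.2 and 47.0 in the LPS + GAS group. Saline replicates 2 and 3 were again the highest and saline replicate 1 among the lowest, so the saline group overlapped both others. All 3 LPS libraries were above all 3 LPS + GAS libraries in this ratio. This was not tested, and how often the 3p to 5p ratios of other miRNAs separate was not counted. In LPS + GAS vs saline, where miR-24-3p had a log2 fold change of -0.64, miR-24-2-5p had 0.23 (95% confidence interval -0.27 to 0.74) and miR-24-1-5p 0.16 (-0.52 to 0.84). The edgeR adjusted p was 0.998 for each 5p row. The rows of the opposite strand were low, with 218 to 434 reads of miR-3074-2-3p, 7 to 16 of miR-3074-1-3p and 2 to 11 of miR-3074-5p. MiR-3074-2-3p was highest in saline replicate 2, at 38.4 CPM, where miR-24-3p was also highest. In saline replicate 3, the next highest for miR-24-3p, it was 24.7 CPM, below LPS replicate 3 and all 3 LPS + GAS libraries.

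Of these 9 partner rows, 7 passed the filter and 0 were called in any of the 3 comparisons. In LPS + GAS vs LPS 1 of the 7, miR-27a-5p, had an unadjusted p under 0.05, beside the 3.66% of all miRNAs given above, and in the other comparisons 0 did. It was 11.6, 11.8 and 8.26 CPM in the saline group, 10.4, 9.80 and 7.34 CPM in the LPS group and 18.4, 14.8 and 12.3 CPM in the LPS + GAS group. All 3 LPS + GAS libraries were above all 6 others, each library resting on 73 to 197 reads. In LPS + GAS vs LPS its log2 fold change was 0.73 with a standard error of 0.25, and its p by edgeR was 0.0156 unadjusted and 0.903 adjusted. In LPS + GAS vs saline the log2 fold change was 0.53 with a standard error of 0.25, with an edgeR p of 0.0599 unadjusted and 0.998 adjusted. The miR-27a 3p to 5p ratio was 154, 153 and 128 in saline replicates 3, 1 and 2. It was 161, 144 and 210.01 in the LPS group and 108, 111 and 117 in the LPS + GAS group. Among the ratios of miR-23b, miR-27b and miR-24, groups separated only between LPS and LPS + GAS for miR-24, as given above. The 3p to 5p ratios were not tested, and no share of separated ratios over other miRNAs was counted. In LPS + GAS vs LPS, groups did not overlap in CPM for 1 of the 7 partner rows, to be read against the 8.6% of all miRNAs given above, and in LPS + GAS vs saline again for 1 of 7, against 7.32%.

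**Figure D5:**
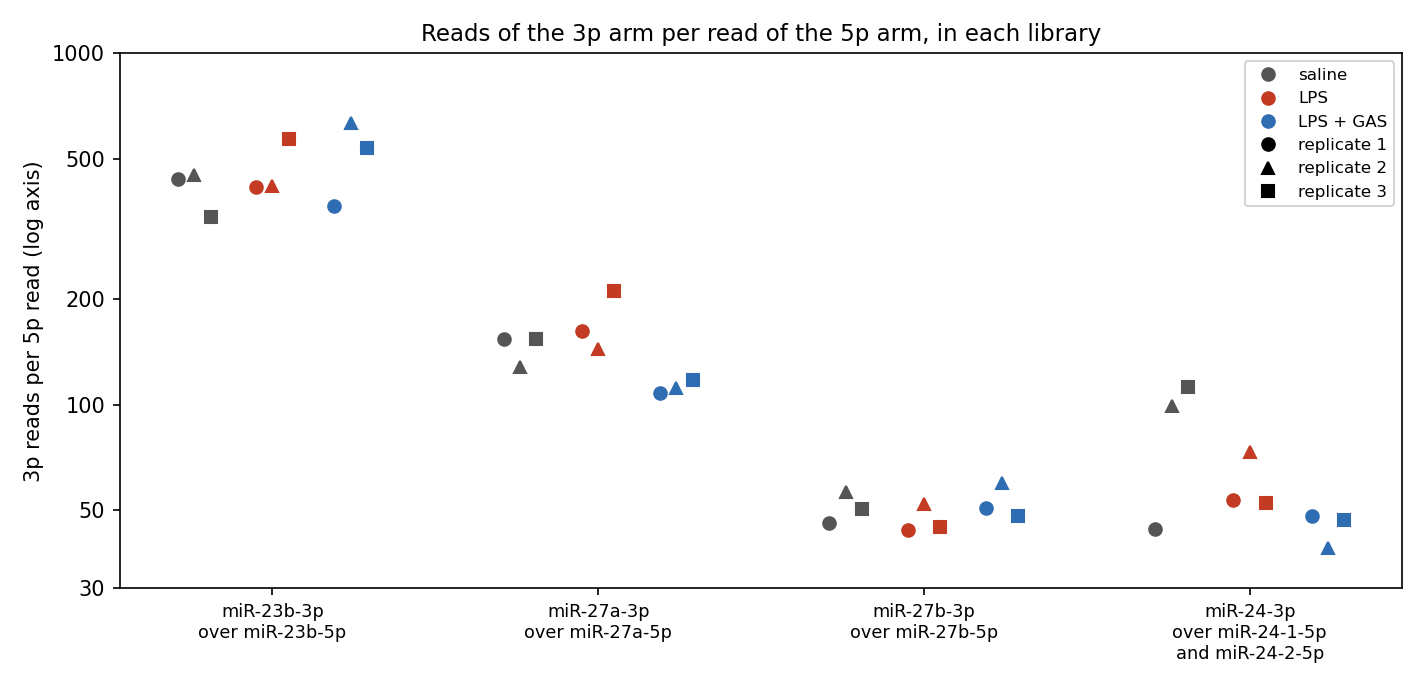
Reads of the 3p strand for each read of the 5p strand (y axis, logarithmic) for miR-23b, miR-27a, miR-27b and miR-24 (x axis) in the 9 libraries, coloured by group and with a symbol for each replicate number. The miR-24 ratio uses both miR-24 5p rows, and miR-23a is not shown since its 5p strand had 0 to 6 reads. The 3 LPS + GAS libraries of miR-27a, at 108 to 117, lie below the other 6. The miR-24 ratio is highest in saline replicates 2 and 3. The ratios were not tested.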

How the data were processed

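Hippocampal small RNA (9 libraries, 3 in each of 3 groups) was sequenced on a BGISEQ-500. The authors deposited read counts on 1448 mature miRNAs, not normalized, and a second whole-number count named exp, never above the read count. How exp was made, the aligner, the counter and the miRBase release are given in no source used here. The exp count was 61.4% to 81.6% of the miR-24-3p reads and 72.1% to 79.9% of the miR-23b-3p reads. It was 87.5% to 91.4% for miR-23a-3p, 88.6% to 92.5% for miR-27a-3p and 90.2% to 92.6% for miR-27b-3p. Over all miRNAs its median share was 98.2% at 1000 to 10000 reads, 87.9% at 10000 to 100000 and 43.2% above 100000. Columns with the authors' averages, log2 fold changes and p-values were not used. Columns of libraries that match no sample numbered 0.

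The filter kept the 628 miRNAs that reached 10 reads in 3 or more libraries. Read counts were fitted in R 4.3.3 with edgeR 4.0.16 (TMM, a mean per group over all 9 libraries, glmQLFit and glmQLFTest), with Benjamini-Hochberg adjustment in each contrast. Ratios between clusters were tested by an exact permutation test over the 20 divisions of 6 libraries. Alternatives were DESeq2 1.42.0 (size factors and Wald test), limma-voom (limma 3.58.1), library totals alone, other filters, only the groups compared, no minimum fold change, the exp counts, reads of the a and b forms added, the replicate number as a block and each library left out. Deviations of same-numbered libraries from their group means had correlations of 0.224 to 0.275 over 3 pairs in LPS + GAS vs saline. The range was -0.26 to 0.34 in LPS vs saline and -0.24 to 0.03 in LPS + GAS vs LPS. Libraries with different numbers gave -0.37 to 0.09, -0.59 to 0.32 and -0.27 to 0.46 in the same order of comparisons. Deviations from a mean of 3 sum to 0, so these correlations constrain each other and cannot settle whether libraries were paired. In a simulation of LPS vs saline, edgeR recovered 194 of 197 miRNAs changed by a log2 fold change of 2 and called 3 of 423 unchanged ones. The simulated spread was capped at its median over miRNAs, and the planted change was above the 1 needed for a call. The simulation therefore does not show how often smaller changes, or changes of miRNAs as variable as miR-24-3p, would be called.

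The members and lists, including the cell type markers, were chosen with earlier results of these data known. Named are the 5 members, the other strands of their hairpins and of the antisense hairpins, miRNAs with a shifted or shared seed, and the 3 with the steadiest ratio to each member. Libraries of a group differed by more than counting error (chi-square over degrees of freedom 278 to 709), so none was counted as a duplicate. Positions are from RefSeq and GENCODE M21 on GRCm38, and RefSeq's mature table lists no miR-23b-3p, whose position was taken from its hairpin.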

Additional observations from a re-analysis of the deposited data

How the results depend on the processing

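Over 282 refits of the 15 log2 fold changes, 0 led to a call, and the lowest adjusted p was 0.439 (edgeR, miR-24-3p in LPS + GAS vs saline without saline replicate 1). The count of the 5 miRNAs called was 0 under all 57 alternatives, those with a library left out (0 to 0) and no minimum fold change included. Where calls over all miRNAs were also counted, the most was 2 of 1347, in LPS vs saline with no filter. A count of 0 among the 5 thus says little about these miRNAs in particular. The sign held in 247 refits, and the other 35 concern 6 log2 fold changes whose intervals contain 0. Where the reads of the a and b forms were added, the fit was of their sum, and it was entered under both forms. For miR-23a-3p in LPS vs saline the sign turned with DESeq2 size factors (0.0556), library totals alone (0.0920), no filter (0.0420), at least 50 reads (0.0335), the DESeq2 Wald test (0.0556), only the groups compared (0.0475), the exp counts (0.0496) and the reads of miR-23b-3p added (0.0862), and leaving out a library gave -0.14 to 0.16. For miR-27b-3p in LPS + GAS vs saline it turned with DESeq2 size factors (0.0404), no filter (0.0336), at least 50 reads (0.0247), the DESeq2 Wald test (0.0404), the exp counts (0.0227) and the reads of miR-27a-3p added (0.12), with -0.0858 to 0.0974 when a library was left out. It also turned for miR-27a-3p in LPS vs saline with the reads of miR-27b-3p added (-0.0231) and for miR-23b-3p in LPS + GAS vs LPS with library totals alone (-0.0383). With a library left out the range was -0.0870 to 0.19 for miR-27a-3p and -0.0988 to 0.25 for miR-23b-3p in LPS vs saline, and -0.0964 to 0.17 and -0.0714 to 0.28 for miR-23b-3p in LPS + GAS vs LPS and vs saline. The cause of these turns was not tested. With a library left out, the difference in the miR-23a-3p to miR-23b-3p log2 ratio was -0.19 to 0.0548 in LPS vs saline, 0.0467 to 0.29 in LPS + GAS vs LPS and 0.0107 to 0.22 in LPS + GAS vs saline, and that of miR-27a-3p to miR-27b-3p 0.15 to 0.26, -0.0771 to 0.0364 and 0.13 to 0.24. The replicate number as a block changed no call, and miR-24-3p in LPS + GAS vs saline was then -0.60. At 12612 reads or more in each library, depth did not limit the 5 miRNAs, but 73 to 197 reads of miR-27a-5p and 0 to 6 of miR-23a-5p limit the 5p ratios.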
